A study of Mus musculus with 3 samples.

Results

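The genes described here build the centromere and kinetochore, run the spindle checkpoint or drive mitosis as kinases and their partners. They are 37 genes of 27298 gene labels on the array. They were chosen by name and role, with earlier results of these data known. Every non-control probe was taken whose gene name in the 3 scanner files is the gene's symbol or a synonym of it, which gave 59 probes. One of these carries the name Aim1, an old name of Aurkb, but its description in the files is that of absent in melanoma 1, another gene, and it was left out, so that 58 probes remained. The genes fall into 4 classes: 11 of the inner centromere, 9 of the outer kinetochore, 9 of the checkpoint and its targets, and 8 mitotic kinases and partners.

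Gene expression was measured on 3 one-colour Agilent arrays with 1 array per group. The groups were p53-null MEF, embryonic fibroblasts that lack p53, MEF with wild-type p53 according to the series design, and ES cells, cultured pluripotent cells derived from the early embryo. All of them carried a Nanog-GFP reporter, a fluorescent read-out of the pluripotency gene Nanog. The labels give no strain, passage or age, and do not say how p53 was lost.

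A kinetochore is the protein plate that ties a chromosome to spindle microtubules. Its inner part sits on nucleosomes that hold the histone variant Cenpa, and its outer part, led by the Ndc80 complex, grips the microtubules. Until every kinetochore is attached, Bub and Mad proteins and the kinase Ttk hold back Cdc20, the activator of the anaphase-promoting complex. Securin, encoded by Pttg1, and separase, encoded by Espl1, then act in sister separation. Most of these genes are transcribed mainly in G2 and mitosis, many of them through promoters with CCAAT boxes and a cell cycle homology region (CHR), to which the DREAM complex binds. In fibroblasts p53 is known to lower many of them through p21 and DREAM. ES cells divide fast and have a short G1.

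Short promoter stretches of genes with large and with small differences are printed here, since many of the genes were higher together. RefSeq promoter windows of assembly GRCm38.p6, from 250 bases before to 50 after the start, were at hand for 32 of the 37 genes, as 36 entries. The stretches run 5′ to 3′ on the gene's strand, from 110 bases before the start to 25 after it. Capitals mark matches to CHR (TTTGAA), its variant TTCGAA, the CCAAT box, and the E2F motifs TTTCGCGC, TTTGGCGC, TTTCCCGC and TTTGGCGG, all searched on both strands. On the reverse strand CHR reads TTCAAA and CCAAT reads ATTGG. The genes were picked after their values and motifs were seen, so the motifs of the printed stretches show what such a promoter looks like and not how common it is: the first 7 genes were higher by 2-fold or more in both comparisons with MEF, and the last 4 were not in p53-null MEF.
Ttk (chr9:83834579-83834713, plus strand): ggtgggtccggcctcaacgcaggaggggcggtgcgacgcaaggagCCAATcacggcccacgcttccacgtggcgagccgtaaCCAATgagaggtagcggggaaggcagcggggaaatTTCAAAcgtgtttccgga
Cenpf (chr1:189688062-189688196, minus strand): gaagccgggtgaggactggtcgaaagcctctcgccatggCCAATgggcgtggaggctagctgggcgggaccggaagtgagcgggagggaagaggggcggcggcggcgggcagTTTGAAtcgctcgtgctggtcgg
Bub1 (chr2:127831835-127831969, minus strand): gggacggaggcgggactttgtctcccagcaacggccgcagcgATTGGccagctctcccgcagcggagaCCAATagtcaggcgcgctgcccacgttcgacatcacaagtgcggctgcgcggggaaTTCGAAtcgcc
Espl1 (chr15:102296183-102296317, plus strand): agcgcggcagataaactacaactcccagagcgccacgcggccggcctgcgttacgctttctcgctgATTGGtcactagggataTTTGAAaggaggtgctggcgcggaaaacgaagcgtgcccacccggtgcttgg
Cdc20 (chr4:118437319-118437453, minus strand): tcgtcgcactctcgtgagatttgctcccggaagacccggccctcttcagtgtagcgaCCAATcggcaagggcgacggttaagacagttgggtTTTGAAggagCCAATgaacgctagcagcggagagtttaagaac
Cenpa (chr5:30666776-30666910, plus strand): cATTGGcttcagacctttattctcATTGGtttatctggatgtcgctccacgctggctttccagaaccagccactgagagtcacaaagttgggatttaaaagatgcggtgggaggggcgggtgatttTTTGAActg
Cdca8 (chr4:124936893-124937027, minus strand): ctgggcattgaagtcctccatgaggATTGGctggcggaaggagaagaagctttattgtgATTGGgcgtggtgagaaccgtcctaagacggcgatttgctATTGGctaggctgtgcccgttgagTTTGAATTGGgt
Bub3 (chr7:131560260-131560394, plus strand): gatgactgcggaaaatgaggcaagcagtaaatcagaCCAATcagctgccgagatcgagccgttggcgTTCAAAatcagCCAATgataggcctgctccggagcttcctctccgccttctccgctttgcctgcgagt
Mis12 (chr11:71019501-71019635, plus strand): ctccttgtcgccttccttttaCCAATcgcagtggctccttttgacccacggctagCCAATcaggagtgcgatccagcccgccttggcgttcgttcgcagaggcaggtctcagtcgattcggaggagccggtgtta
Cenpt (chr8:105851984-105852118, minus strand): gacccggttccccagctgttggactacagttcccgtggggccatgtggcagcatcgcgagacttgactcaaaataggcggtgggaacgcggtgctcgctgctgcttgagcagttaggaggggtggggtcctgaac
Mad1l1 (chr5:140321528-140321662, minus strand): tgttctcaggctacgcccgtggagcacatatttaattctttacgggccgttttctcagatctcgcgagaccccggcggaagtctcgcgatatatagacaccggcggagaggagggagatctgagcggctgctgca

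Ttk, Cenpf, Bub1, Espl1, Cdc20, Cenpa and Cdca8 each hold CHR or its variant together with at least 1 CCAAT box in this stretch, which the choice of genes fixed. Over the whole windows, 14 of 15 genes with both motifs were higher by 2-fold or more in p53-null MEF, as were 7 of 8 with another make-up and 7 of 9 with none of the motifs. Of all labels measured, 18.4% were higher by 2-fold or more. The share among all genes with the same motif make-up was not determined. Cenpe, with the largest difference, holds CCAAT and no CHR, Cenpi likewise, and Cenpp none of the 7 motifs. In Cdca8 the CHR letters share a base with a reversed CCAAT box. Among the 4 genes that fell short of 2-fold in p53-null MEF (not so with scaling on spike-ins), Bub3 holds both motifs, Mis12 holds CCAAT boxes without CHR, and Cenpt and Mad1l1 hold none of the 7. CHR was found over the whole windows in 16 of 36 entries (44.4%) against 17.9% of all 32851 promoter entries of the same length. Its variant was in 3 entries (8.33%, against 1.56% of all), CCAAT in 24 (66.7%, against 37.4%) and any of the 4 E2F motifs in 2 (5.56%, against 2.37%). CHR or its variant stood together with CCAAT in 16 entries (44.4%, against 7.52%). Of the 19 CHR or variant matches, 10 lay after the start, 3 within the 30 bases before it and 6 further before. A Bub3 site that lies in overlapping windows is counted more than once, among the 6 and in the entry counts above. Positions depend on the start used, and 15 of the 36 entries start at the outer end of the gene in the RefSeq annotation.

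By class, CHR or its variant together with CCAAT was found for 6 of 9 checkpoint genes with an entry, 3 of 5 kinases and partners, 2 of 7 outer kinetochore genes and 4 of 11 inner centromere genes. The differences of genes with and without these motifs overlapped. In p53-null MEF against MEF the 15 genes with both motifs had log2 differences from 0.24 to 3.58 with a median of 2.21. The 9 genes with none of the 7 motifs, among them Birc5, Pttg1 and Cenpp, ranged from -0.48 to 3.19 with a median of 2.39. The 8 genes with another make-up ranged from 0.64 for Mis12 to 3.97 for Cenpe, with a median of 2.77. In ES cells against MEF the medians were 3.05 for genes with both motifs, 2.31 for those with none and 2.65 for the rest. A letter match is a description of the sequence and not a binding site.

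The arrays themselves can be summarised briefly. Slide and p53 status cannot be told apart, since the array of p53-null MEF came from a slide of its own, scanned at another time, and the other arrays shared 1 slide. Spot signals had a 75th percentile between 828 and 1040 units, from 60.4% to 64.4% of spots were well above background, and no spot was saturated. Trp53, the gene for p53, differed between p53-null MEF and MEF by -4.87 ± 0.22 on the log2 scale at its brighter probe and by -1.46 ± 0.20 at the other (0.51 with scaling on spike-ins), and Cdkn1a, the gene for p21, by -5.66 ± 0.20. Whether either Trp53 probe lies in an altered part of the gene is not known. All 5 ES cell markers (Pou5f1, Nanog, Sox2, Zfp42, Esrrb) were well above background in ES cells, and only Sox2 was in each fibroblast sample. Summed fibroblast markers (Col1a1, Col1a2, Col3a1, Pdgfrb, Thy1) reached 414 and 517 times the array's 75th percentile in p53-null MEF and MEF and 7.20 in ES cells. In the order p53-null MEF, ES cells and MEF, the sums were 0.237, 0.641 and 2.63 for macrophage markers, 0.631, 0.308 and 0.252 for endothelial markers, and 0.722, 33.2 and 1.36 for epithelial markers. Single genes made up most of several sums. Cd68 gave 0.559 of the macrophage sum in ES cells, and Lyz2 gave 2.39 in MEF. Against MEF, ES cells differed by 1.68 for Cd68 and by -5.00 for Lyz2. Kdr gave 0.621 and 0.244 of the endothelial sums in p53-null MEF and MEF, where Pecam1 and Cdh5 were not well above background. Cdh1 gave 18.9 of the epithelial sum in ES cells.

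Signals are given below in processed scanner units as measured, and differences as log2 differences after each array was set to its own 75th percentile. Where a gene had several probes, the brightest over the 3 arrays stands for it. At that probe all 37 genes were well above background on every array, so none was a bound and none was lost. The error given with ± is that of the scanner software's error model, which covers measurement of a spot and not the spread between cultures. It lay from 0.20 to 0.25 for the differences from MEF. With 1 array per group there is no test and no p-value, and each difference describes these 3 cultures. Levels of different genes cannot be set against each other, because probes differ in brightness.

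**Figure D1:**
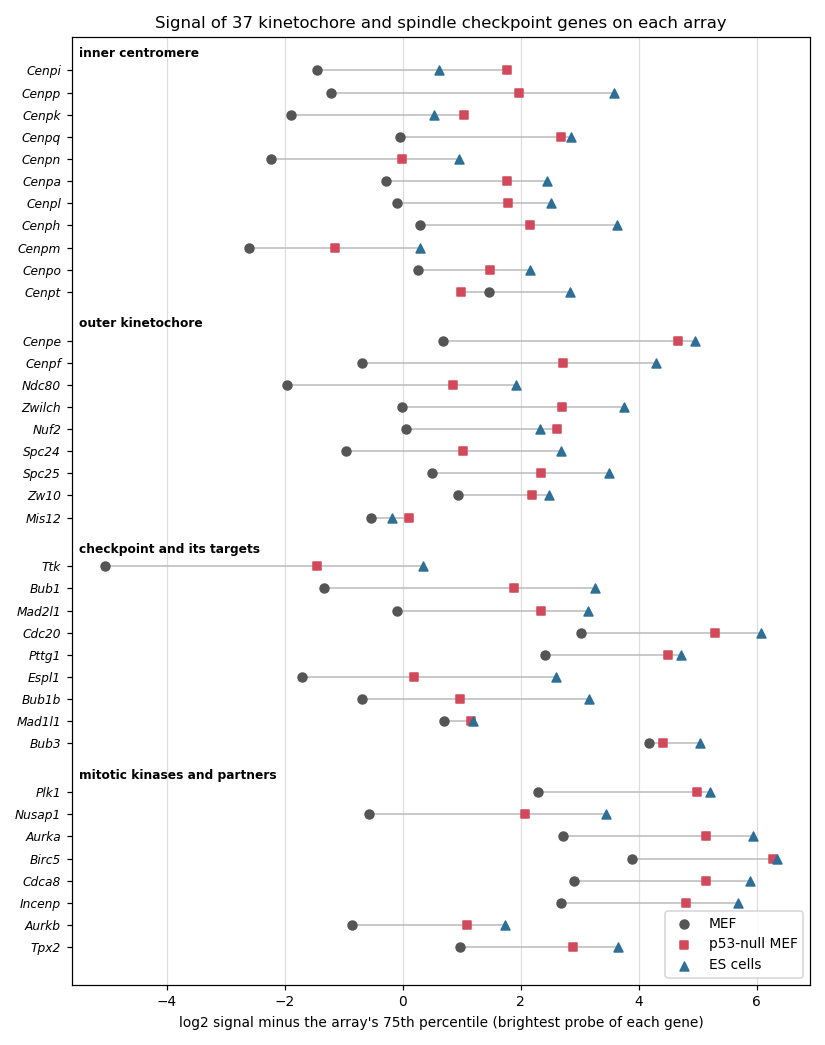
Log2 signal of the brightest probe of each of the 37 genes on the 3 arrays, minus the 75th percentile of each array, by class and ordered within a class by the difference of p53-null MEF and MEF. MEF (circles) had the lowest value in 36 genes, and ES cells (triangles) the highest in 33 of the 37, an order between ES cells and p53-null MEF (squares) that turns with scaling on spike-ins; positions of different genes along the axis cannot be compared.

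The first comparison asks how the genes of chromosome attachment differ in fibroblasts that lack p53. Of the 37 genes, 33 were higher by 2-fold or more in p53-null MEF than in MEF, none was lower by 2-fold or more and 4 were neither, namely Cenpt, Mis12, Mad1l1 and Bub3. Over all 17256 gene labels measured, 18.4% were higher by 2-fold or more and 16.7% lower by 2-fold or more. The median log2 difference was 2.21 for the 37 genes and 0.03 for all labels. With scaling on spike-in RNA, which moved the median of all labels to 1.998, all of the 37 were higher by 2-fold or more, Cenpt included, as were 78.6% of all labels, and the median of the 37 was 4.18. The median of the 37 lay 2.18 above that of all labels with either scaling. Scaling moves all labels together, so this gap could not change. Of all labels past 2-fold, 52.5% were higher in p53-null MEF, 71.0% without scaling and 98.0% on spike-ins. Class medians were 2.06 for the inner centromere, 2.55 for the outer kinetochore, 2.09 for the checkpoint and its targets, and 2.31 for kinases and partners. The difference exceeded 2 times its error in 36 of the 37 genes, Bub3 being the exception. For this count, too, the share of all labels is not given.

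Markers of cycling cells, 8 in all, were higher as well. Their summed signal was 125 times the array's 75th percentile in p53-null MEF, 233 in ES cells and 30.9 in MEF, and 7 of 8 were higher by 2-fold or more in p53-null MEF than in MEF. Differences ranged from 0.78 for Rrm2, a subunit of ribonucleotide reductase, to 3.67 for the proliferation marker Mki67, with a median of 2.16, close to that of the 37 genes. All 8 were well above background on every array. Their part in the result was not tested. RNA of a whole culture was measured, so more dividing cells and more RNA per dividing cell cannot be told apart.

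Of the 11 inner centromere genes, 10 were higher by 2-fold or more in p53-null MEF. Cenpi, a subunit of the constitutive network on centromeric chromatin, gave 3536 units in p53-null MEF, 1279 in ES cells and 303 in MEF, a difference of 3.22 ± 0.20 between the fibroblasts. Its probe lies on chromosome X at 129708839 to 129708898 of build mm8. Cenpi stood highest in p53-null MEF, and it was the one gene of the 37 lower by 2-fold or more in ES cells than in p53-null MEF. With scaling on spike-ins 16 of the 37 were lower by 2-fold or more there, as were 62.2% of all labels.

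Cenpp, of the subcomplex with Cenpo and Cenpq, gave 4099 units in p53-null MEF, 9991 in ES cells and 359 in MEF (3.19 ± 0.20), at a probe on chromosome 13 from 49476641 to 49476700 of mm8. Another of its probes differed by 1.92, and a dim one, designed on a cDNA clone, by at least 0.40. Cenpk, a partner of Cenph and Cenpi, gave 2144 units in p53-null MEF, 1197 in ES cells and 224 in MEF (2.93 ± 0.20). Its other probes differed by 2.72 and at least 2.43, so the measured probes lay close together.

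Cenpa, the histone variant that marks the centromere, gave 3542 units in p53-null MEF, 4529 in ES cells and 677 in MEF (2.06 ± 0.20). The subunit genes Cenpq, Cenpn, Cenpl, Cenph and Cenpm differed by 2.73, 2.21, 1.89, 1.86 and 1.47. Cenpn was on the arrays under its older name 2610510J17Rik.

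Cenpo and Cenpt stood at the low end of the class. Cenpo gave 2891 units in p53-null MEF, 3697 in ES cells and 996 in MEF (1.21 ± 0.20), while a second probe, designed on a cDNA clone, differed by -0.12 with 137 units in p53-null MEF against 119 in MEF. Whether Cenpo stood above MEF thus depends on the probe, although with scaling on spike-ins both did (3.18 and 1.85). Cenpt, a histone-fold protein that links centromeric DNA to the Ndc80 complex, gave 2068 units in p53-null MEF, 5963 in ES cells and 2291 in MEF (-0.48 ± 0.20). It was the only one of the 37 below its MEF level in p53-null MEF, which turned to 1.495 with scaling on spike-ins. Its probe lies on chromosome 8 at 108734238 to 108734297 of mm8.

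Outer kinetochore genes held the largest difference of the 37 between the fibroblasts. Cenpe, a kinesin motor that carries chromosomes to the spindle equator, gave 26288 units in p53-null MEF, 25930 in ES cells and 1334 in MEF (3.97 ± 0.20, 15.7-fold). Its probe lies on chromosome 3 at 135210810 to 135210869 of mm8, and its other probes differed by 3.57 and 3.45. Cenpf, a large coiled-coil protein of the outer plate, gave 6817 units in p53-null MEF, 16259 in ES cells and 513 in MEF (3.40 ± 0.20). Its probe lies on chromosome 1 at 191342843 to 191342902 of mm8. Both stood far above MEF in p53-null MEF and in ES cells alike.

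The Ndc80 complex, the microtubule grip, has 4 subunits, all of them higher by 2-fold or more in p53-null MEF. Ndc80 itself gave 1886 units in p53-null MEF, 3144 in ES cells and 214 in MEF (2.81 ± 0.20). Nuf2 differed by 2.55, Spc24 by 1.99 and Spc25 by 1.84. Ndc80 and Nuf2 form the end that holds the microtubule, and Spc24 and Spc25 the end that faces the inner kinetochore.

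Zwilch and Zw10 belong to the complex that brings dynein and Mad proteins to unattached kinetochores. Zwilch differed by 2.72. Zw10, which also works in membrane traffic outside mitosis, gave 4747 units in p53-null MEF, 4664 in ES cells and 1581 in MEF (1.26 ± 0.20). Mis12, of the complex that joins the inner centromere to the Ndc80 complex, gave 1122 units in p53-null MEF, 739 in ES cells and 573 in MEF (0.64 ± 0.20). It was the least different gene of the class in both comparisons with MEF.

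Among the 9 checkpoint genes and targets, 7 were higher by 2-fold or more in p53-null MEF, all but Mad1l1 and Bub3. Ttk, the kinase that starts checkpoint signalling, gave 378 units in p53-null MEF, 1059 in ES cells and 25.2 in MEF (3.58 ± 0.25, 11.9-fold). Its MEF signal was 25.2 units against 12.4 for the dimmest signal that counted as above background there, and its error was the largest of the 37. Bub1, a kinase that recruits the other checkpoint proteins, gave 3832 units in p53-null MEF, 7973 in ES cells and 330 in MEF (3.21 ± 0.20), at a probe on chromosome 2 from 127492693 to 127492752 of mm8. The related Bub1b, which encodes BubR1, gave 2048 units in p53-null MEF, 7461 in ES cells and 512 in MEF (1.67 ± 0.20).

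Mad2l1, the gene for the Mad2 protein that binds Cdc20, gave 5296 units in p53-null MEF, 7378 in ES cells and 777 in MEF (2.44 ± 0.20), and a second probe differed by 2.30. Mad1l1, which anchors Mad2 at the kinetochore, gave 2311 units in p53-null MEF, 1908 in ES cells and 1339 in MEF (0.46 ± 0.20). The binding partners thus differed unequally from MEF.

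Bub3, the partner that carries Bub1 and Bub1b to the kinetochore, gave 22014 units in p53-null MEF, 27421 in ES cells and 14888 in MEF (0.24 ± 0.20). A second RefSeq-based probe differed by 0.20, and a dim probe on a cDNA clone, with 92.0 units in p53-null MEF against 19.8 in MEF, by 1.89. In this comparison the brighter probes of Bub3 stood near the median of all labels.

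The targets of the checkpoint differed between p53-null MEF and MEF by 1.89 to 2.27, and more unequally between ES cells and MEF, by 2.31 to 4.31. Cdc20 gave 40531 units in p53-null MEF, 55981 in ES cells and 6704 in MEF (2.27 ± 0.20). Pttg1 gave 23580 units in p53-null MEF, 21956 in ES cells and 4409 in MEF (2.09 ± 0.20). Espl1 differed by 1.89.

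All 8 kinases and partners were higher by 2-fold or more in p53-null MEF, within the narrow range of 1.90 to 2.68. Plk1, a kinase of mitotic entry and kinetochore attachment, gave 32793 units in p53-null MEF, 30906 in ES cells and 4076 in MEF (2.68 ± 0.20), at a probe on chromosome 7 from 121960854 to 121960913 of mm8. Nusap1, which bundles spindle microtubules, gave 4354 units in p53-null MEF, 9049 in ES cells and 559 in MEF (2.63 ± 0.20). Aurka, the kinase of the spindle poles, gave 36472 units in p53-null MEF, 50806 in ES cells and 5449 in MEF (2.41 ± 0.20).

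The chromosomal passenger complex corrects wrong attachments and consists of Aurkb, Incenp, Birc5 and Cdca8. Aurkb, its kinase, gave 2222 units in p53-null MEF, 2783 in ES cells and 457 in MEF (1.95 ± 0.20). Birc5, which encodes survivin, gave 80735 units in p53-null MEF, 67248 in ES cells and 12249 in MEF (2.39 ± 0.20). Together with Incenp at 2.12 and Cdca8 at 2.23, the 4 subunits ranged from 1.95 to 2.39.

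Cdca8, which encodes borealin, had 3 probes. At the brightest it gave 36706 units in p53-null MEF, 49260 in ES cells and 6220 in MEF, while another RefSeq-based probe differed by 1.25 and a dim one by at least 0.60. Tpx2, the activator of Aurka, gave 7643 units in p53-null MEF, 10494 in ES cells and 1629 in MEF (1.90 ± 0.20). It was the lowest of the class and still 3.73-fold higher in p53-null MEF.

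**Figure D2:**
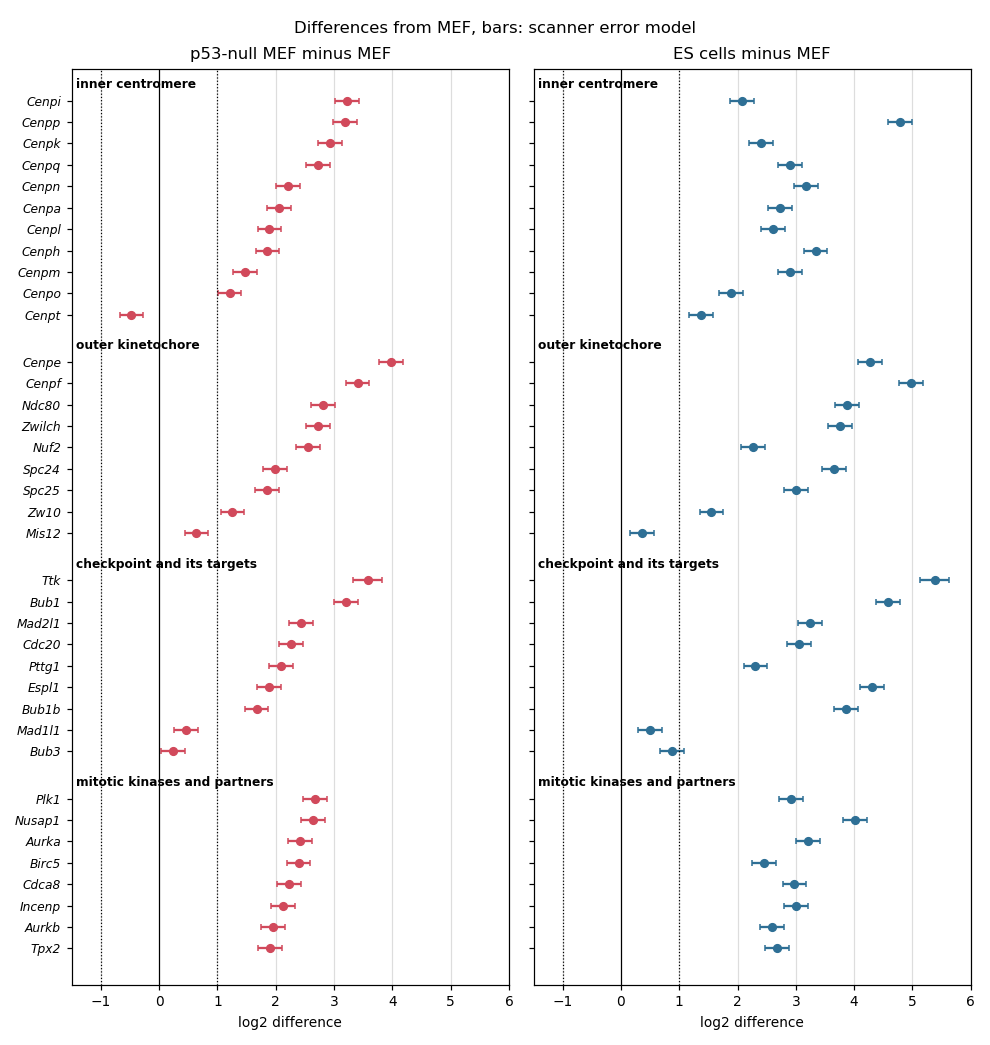
Log2 differences of p53-null MEF minus MEF (left) and ES cells minus MEF (right) for the 37 genes, with bars for the scanner software's error model (about 0.20) and dotted lines at a 2-fold difference. On the left 33 genes lie beyond the upper dotted line and Cenpt lies below 0 (1.495 with scaling on spike-ins); on the right all lie above 0 and Mis12, Mad1l1 and Bub3 fall short of 2-fold, Bub3 at 0.87 (1.10 with scaling on spike-ins).

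ES cells were compared with MEF on arrays of 1 slide, to set the pluripotent state beside the fibroblasts. Of the 37 genes, 34 were higher by 2-fold or more in ES cells and none was lower by 2-fold or more. Of all 18586 gene labels measured, 32.7% were higher by 2-fold or more and 27.2% lower by 2-fold or more. The median log2 difference was 2.98 for the 37 genes and 0.20 for all labels. With scaling on spike-ins these medians were 3.21 and 0.43, and 35 genes were higher by 2-fold or more. This comparison shares its MEF array with the first, so a low MEF signal raises both. Mis12, Mad1l1 and Bub3 differed by 0.36, 0.50 and 0.87.

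Ttk had the largest difference of the 37, 41.7-fold (5.38 ± 0.25). Bub1 was 24.0-fold higher (4.58 ± 0.20). Espl1, the protease that cuts cohesin, gave 1183 units in p53-null MEF, 5070 in ES cells and 254 in MEF, a difference of 4.31 ± 0.20 between ES cells and MEF. Bub1b differed by 3.85, Mad2l1 by 3.24, Cdc20 by 3.05 and Pttg1 by 2.31.

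In the outer kinetochore Cenpf was 31.5-fold higher in ES cells (4.98 ± 0.20), with a dim second probe at 3.20 or more. Cenpe followed at 4.27, Ndc80 at 3.87, Zwilch at 3.76, Spc24 at 3.65 and Spc25 at 2.999. Nuf2 and Zw10 were lower in that row, at 2.27 and 1.55. The class median of 3.65 was the highest of the 4.

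All 11 inner centromere genes were higher by 2-fold or more in ES cells, from 1.37 for Cenpt to 4.79 for Cenpp, with a median of 2.73. Cenpp was 27.7-fold higher at its brightest probe, by 3.66 at another and by at least 0.42 at the dim one. For Cenpo the probes were close, at 1.88 and 1.79. Its second probe stood above MEF in ES cells and, at -0.12, not in p53-null MEF (1.85 with scaling on spike-ins).

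Kinases and partners had a median of 2.94, from 2.45 for Birc5 to 4.01 for Nusap1. A dim Nusap1 probe on a cDNA clone, well above background in ES cells alone, gave a bound of 0.37. The 3 Cdca8 probes were close here, at 2.98, 3.004 and at least 2.87. The spread of the class without Nusap1 ran from 2.45 to 3.21, the latter for Aurka.

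**Figure D3:**
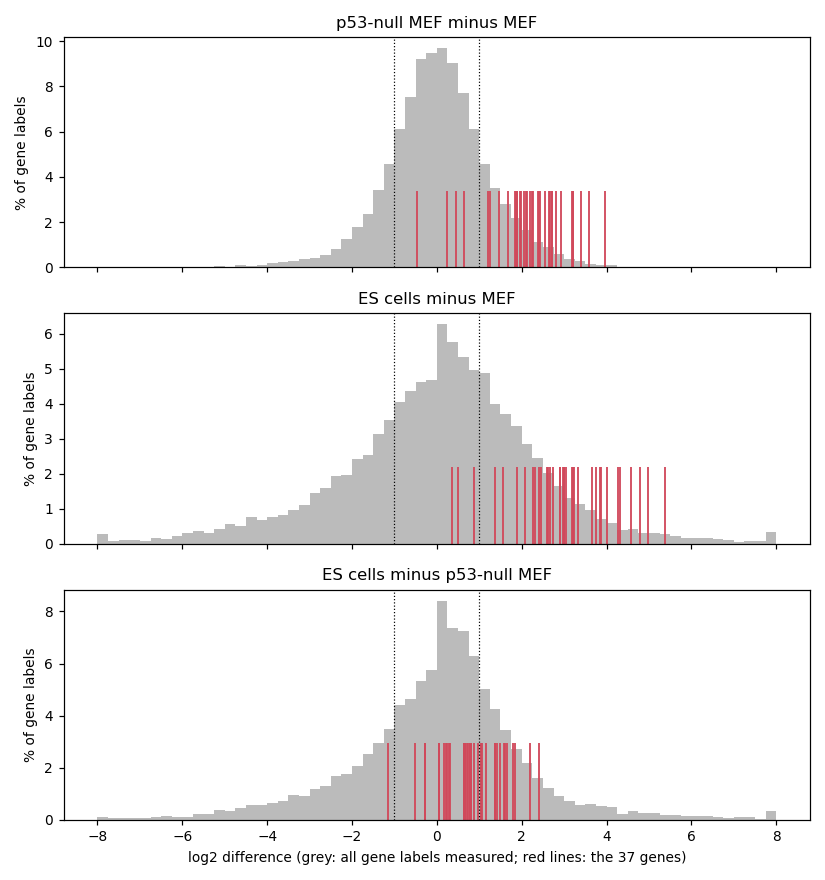
Share of all gene labels by log2 difference (grey, bins of 0.25, values beyond 8 in either direction placed in the end bins) with the 37 genes as red lines and dotted lines at a 2-fold difference, for the 3 pairs of arrays. In both comparisons with MEF the red lines lie mostly beyond the upper dotted line (33 and 34 of 37), while between ES cells and p53-null MEF 22 of 37 lie between the dotted lines, and there the median turns from 0.79 to -0.95 with scaling on spike-ins.

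Levels in ES cells and p53-null MEF were close for many of the genes. On the scaled values 32 genes stood in the order ES cells, p53-null MEF, MEF from highest to lowest. Cenpi, Cenpk, Nuf2 and Mis12 were highest in p53-null MEF, and Cenpt was lowest there. Of the 37, 14 were higher by 2-fold or more in ES cells than in p53-null MEF, 1 lower by 2-fold or more and 22 neither, with a median of 0.79, against 26.8% higher, 23.7% lower and a median of 0.17 over 18264 labels. This direction did not hold with scaling on spike-ins, where none was higher by 2-fold or more, 16 were lower by 2-fold or more and the median was -0.95, beside -1.496 for all labels. Of all labels past 2-fold, 53.1% were higher in ES cells on the 75th percentile, 41.1% without scaling and 9.35% on spike-ins. The arrays lay on different slides.

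Some genes are named here because of their values in this comparison. The largest differences were those of Espl1 at 2.42 and Bub1b at 2.18, followed by Cenpt at 1.85 and Ttk at 1.80. Cenpi, lower in ES cells, differed by -1.15 and Cenpk by -0.52, and other Cenpk probes differed by 0.04 and 0.30. Mad1l1 at 0.04, Birc5 at 0.06 and Cenpq at 0.17 lay within the error of 0.20. In 28 of the 37 genes the difference exceeded 2 times its error. The share of all labels that did so is not given, so this count has no background beside it.

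**Figure D4:**
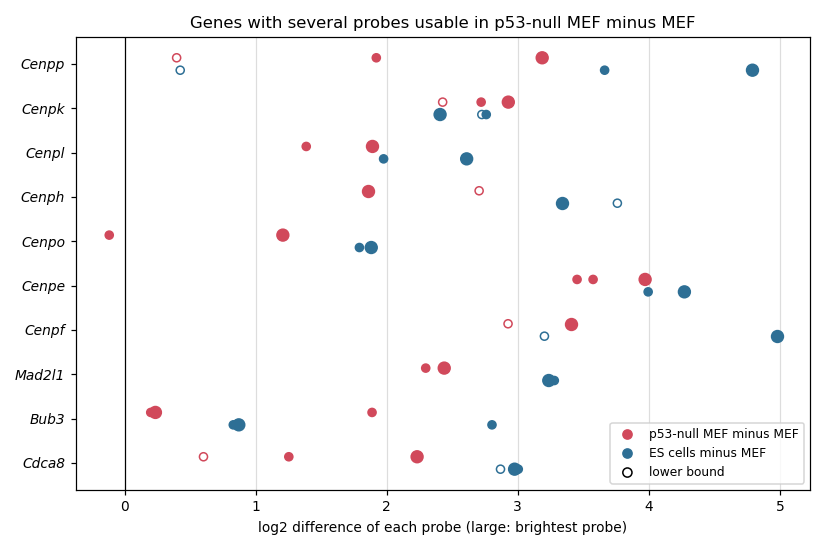
Log2 differences of each probe for the 10 genes with several probes that gave a difference or a bound in p53-null MEF minus MEF, that comparison in red and ES cells minus MEF in blue, with the brightest probe as a large symbol and lower bounds as open circles. Measured probes of Cenpk, Cenpe and Mad2l1 lie close together, while measured probes of Cenpp, Bub3 and Cenpo lie more than 1 log2 unit apart in p53-null MEF minus MEF; the Cenpo probe below 0 moves to 1.85 with scaling on spike-ins.

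Several probes were printed for 14 of the 37 genes and 1 for 23. Of the 46 probes designed on a RefSeq transcript 44 were well above background on all 3 arrays, against 3 of 12 designed on other cDNA sequences. In p53-null MEF against MEF the probes of 3 of 8 genes with several probes measured on both arrays lay more than 1 apart on the log2 scale (Cenpo, Cenpp, Bub3). Those of Cenpo differed in sign. In ES cells against MEF the probes of 2 of 8 genes lay more than 1 apart (Cenpp, Bub3), with no difference in sign. In ES cells against p53-null MEF those of 4 of 10 genes did (Cenpo, Cenpp, Cenpf, Cdca8), and those of Cenpk differed in sign. Cenpp and Cenpf, higher there by 2-fold or more at the brightest probe, differed by 0.03 and 0.28 at their lowest probes. Taking the mean of all probes left 32 of 37 genes higher by 2-fold or more in p53-null MEF and 35 in ES cells.

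Other genes of chromosome attachment and separation followed in part. Of 25 further kinetochore and centromere genes on the array, 22 were higher by 2-fold or more in p53-null MEF than in MEF and 22 in ES cells, with medians of 2.24 and 3.44, against 18.4% and 32.7% of all labels. No probe matched Cenpx. Cenpb, which binds a satellite DNA motif, differed from MEF by -1.18 ± 0.20 in p53-null MEF and by -1.14 in ES cells, which became 0.79 and -0.90 with scaling on spike-ins.

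Condensin genes, which compact chromosomes, were higher by 2-fold or more for 7 of 8 members in p53-null MEF and 8 of 8 in ES cells, with medians of 2.39 and 3.09. They ranged from Ncaph2 at 0.87 to Ncapg2 at 3.40 in p53-null MEF, and from Ncaph2 at 1.01 to Smc2 at 4.47 in ES cells. Cohesin genes, which hold sister chromatids together, were higher by 2-fold or more for 11 of 13 and 12 of 13, with medians of 1.69 and 2.15. Of all labels, 18.4% and 32.7% were higher by 2-fold or more. In p53-null MEF other measured probes of Smc1a (0.59), Wapl (0.72), Stag1 (0.36 and 0.40) and Esco1 (0.64 and -0.97) fell short of 2-fold. The Esco1 probe at -0.97 moved to 0.998 with scaling on spike-ins. Further measured probes of Smc3, Stag2, Pds5b, Cdca5 and Nipbl, and another of Stag1, did not fall short. Esco2, the acetyltransferase that sets cohesion in S phase, was highest at 3.99 ± 0.24 and 6.08, with 27.1 units in MEF. The loader gene Mau2 was lowest at -0.19 (1.78 with scaling on spike-ins) and 0.62. Another Mau2 probe differed by -1.47 and -0.17 (0.50 and 0.07 with scaling on spike-ins).

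Subunits of the anaphase-promoting complex, the ubiquitin ligase that Cdc20 activates, and its partners had medians of 0.49 in p53-null MEF and 0.77 in ES cells. Of 18 genes, 5 and 8 were higher by 2-fold or more, 0 and 2 lower by 2-fold or more, and 13 and 8 neither. Of all labels, 18.4% and 32.7% were higher by 2-fold or more and 16.7% and 27.2% lower, with medians of 0.03 and 0.20. The counts of higher genes lie nearer to the shares of all labels than those of the kinetochore, condensin and cohesin lists. With scaling on spike-ins all 18 were higher by 2-fold or more in p53-null MEF with a median of 2.46, as were 78.6% of all labels with a median of 1.998. Those that stood highest in both comparisons were Fbxo5, an inhibitor of the complex, at 2.96 and 4.25, and its E2 enzyme gene Ube2c at 2.18 and 3.36. The lowest were Anapc2 at -0.85 in p53-null MEF (1.12 with scaling on spike-ins) and Anapc16 at -1.55 in ES cells, with another Anapc16 probe at 1.15.

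**Figure D5:**
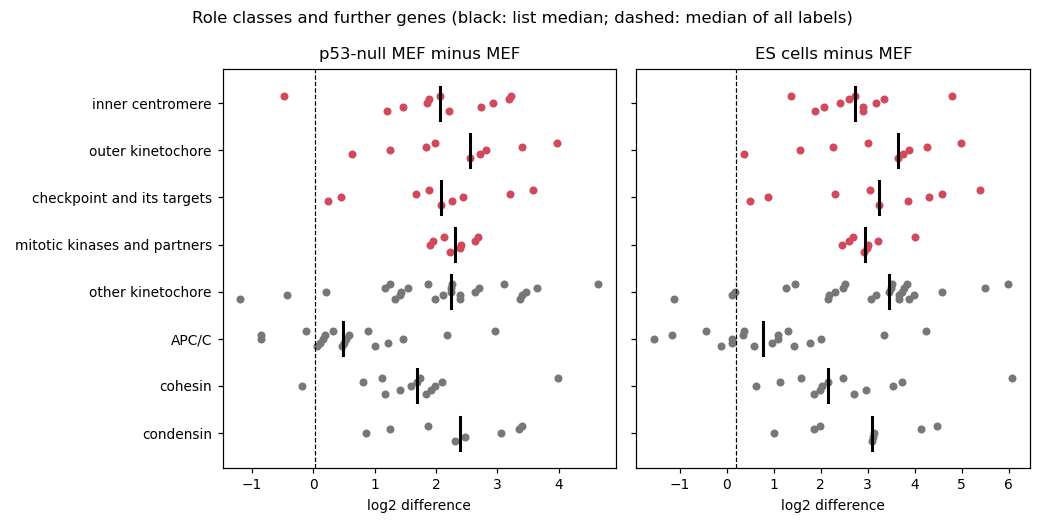
Log2 differences of single genes in the 4 classes (red) and in further lists of kinetochore, anaphase-promoting complex (APC/C), cohesin and condensin genes (grey), for p53-null MEF minus MEF (left) and ES cells minus MEF (right); black bars are list medians and the dashed line is the median of all labels. The APC/C genes, with medians of 0.49 and 0.77, lie nearest to the dashed line, and the 4 classes have medians from 2.06 to 2.55 on the left and from 2.73 to 3.65 on the right.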

How the data were processed

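Total RNA of 3 cultures was labelled with Cy3 and hybridised to 1 Agilent whole-genome design, 1 array per group. The deposited scanner files hold spot intensity on a linear scale, made by the authors with Agilent Feature Extraction 9.5.3.1 (background subtraction, spatial and multiplicative detrending), per the file headers. The authors' value table holds the same intensity, within a ratio of 0.995 to 1.005 on each array.

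Of 43379 non-control spots, 62, 176 and 192 (p53-null MEF, ES cells, MEF) marked as uneven or outliers were left out. Log2 of the processed signal minus each array's 75th percentile was averaged per probe. Well above background means so marked by the scanner software on 50% or more of a probe's kept spots. If this held on only 1 array of a pair, the difference is a bound, set against the dim signal or the array's dimmest signal above background, whichever was higher. Probes were named by symbol or unique synonym in the RefSeq table of GRCm38.p6 (33049 of 41174 probes). Probe positions are on mm8, per the file header of the p53-null MEF array; their exon or untranslated region was not determined. Alternatives used limma 3.58.1 (normexp, offset 50, and quantile normalization), other scalings, probe choices and a 3-fold limit.

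Genes with full values are, per class, the 3 most and 2 least different in p53-null MEF, the extremes in ES cells, and genes whose probes lie more than 1 (log2) apart in any comparison, bounds included. Cenpa, Bub1b, Cdc20, Pttg1, Espl1 and Ube2c were picked outside this rule, after their values were seen. Members and lists were chosen with earlier results of these data known.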

Additional observations from a re-analysis of the deposited data

How the results depend on the processing

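In p53-null MEF against MEF the count of genes higher past the fold limit ran from 30 (3-fold limit) to 37 (spike-ins) over the alternatives. The shares of all labels there were 9.37% and 78.6%. In ES cells against MEF it ran from 32 (3-fold limit) to 35 (spike-ins), beside 22.4% and 37.3% of all labels. Between ES cells and p53-null MEF the count fell from 14 to 6 with a 3-fold limit and to 0 with scaling on spike-ins. Beside these stood 26.8%, 16.3% and 6.42% of all labels. With the 3-fold limit the count thus lay near the share of all labels.

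Scaling moved the medians. For p53-null MEF minus MEF, 2.21 became 2.54 without scaling and 4.18 with spike-ins. For ES cells minus MEF, 2.98 became 2.75 with median scaling and 3.21 with spike-ins. For ES cells minus p53-null MEF, 0.79 became 0.53 with median scaling, 0.47 without scaling and -0.95 with spike-ins. With spike-ins 10 genes that were higher by 2-fold or more in ES cells than in p53-null MEF changed sign: Cenph (-0.26), Cenpm (-0.31), Cenpp (-0.13), Ndc80 (-0.68), Spc24 (-0.074), Spc25 (-0.58), Zwilch (-0.70), Cenpf (-0.17), Bub1 (-0.36) and Nusap1 (-0.36). These shifts follow from the construction of the scaling, which moves all labels together. Of all labels past 2-fold, 52.5% were higher in p53-null MEF than in MEF, 71.0% without scaling and 98.0% with spike-ins. Between ES cells and p53-null MEF that share went from 53.1% to 41.1% and 9.35%.

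No replicate was left out, and no paired analysis was possible because each group has 1 array. The number of arrays limits the precision. Depth of signal limits Ttk most, whose MEF signal was 25.2 units.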
